A study of Homo sapiens with 22 samples.

Results

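The comparison described here is that of MDA-MB231 cells treated with Nexturastat A against their own control. Its members are 4 of the 22 libraries of the series, 2 labelled Ctrl and 2 labelled Nexturastat A, and the 16741 of 26485 gene symbols that held at least 10 counts in at least 2 of those libraries. The series profiled RNA from this cell line after inhibition or knockdown of HDAC6, and the other libraries carry short hairpins or other inhibitors, with controls of their own. MDA-MB231 is an established human line derived from a triple-negative breast cancer. All 4 libraries came from cells of genotype WT, grown in DMEM with fetal bovine serum and sampled at day 2. The control cells received DMSO, the solvent, and the treated cells received 7.65 µM Nexturastat A for 2 days. The design text names the compound as an inhibitor of HDAC6 and sets treated cells against untreated ones. The labels do not say whether replicates 1 and 2 were separate cultures, so the p-values below measure only the spread between these libraries, which may be technical. At the filter's edge, 202 symbols had a second-highest count of exactly 10 and were kept, and 123 had one of 9 and were left out.

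HDAC6 is a mostly cytoplasmic lysine deacetylase, known for removing acetyl groups from alpha-tubulin, cortactin and the chaperone HSP90 and for carrying ubiquitinated protein aggregates along microtubules. Nexturastat A is a hydroxamate, a class of compounds that bind the catalytic zinc of histone deacetylases. Nuclear members of the enzyme family, chiefly HDAC1, HDAC2 and HDAC3, remove acetyl groups from histone tails, and acetylated histone tails mark transcribed promoters and enhancers.

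The libraries held 60200213 and 61551670 counts in Ctrl replicates 1 and 2 and 58004430 and 59363167 counts in Nexturastat A replicates 1 and 2. Levels are given as CPM, that is counts scaled to a common library size, always in that order of replicates, and are not divided by gene length, so they are not compared between genes. Markers of a mesenchymal triple-negative line were present in Ctrl, with VIM at 2241 and 2199 CPM and CD44 at 350.1 and 345 CPM, while ESR1, PGR and CDH1, the oestrogen receptor, progesterone receptor and E-cadherin genes, each stayed at or below 0.202 CPM. Of the 17 lung epithelium markers, NKX2-1, a lung lineage factor, was at 66.4 and 54.4 CPM in Ctrl and FOXA2 at 101 and 82.7 CPM. MUC5AC, which is not on that list, was at 252 and 165 CPM. The 17 lung markers summed to 217 and 175 CPM in Ctrl and 228 and 194 CPM with treatment. Of the surfactant genes, SFTPB was at 1.48 and 0.84 CPM in Ctrl, and SFTPA1, SFTPA2 and SFTPD had 0 counts there. These levels stand beside the breast label of the line, whose identity was not tested. The 16 blood cell markers summed to 178 to 196 CPM in Ctrl and 138 to 155 CPM in treated cells, nearly all of it CD68, and PTPRC and CD3E had 0 counts in Ctrl. DHRS2, a dehydrogenase gene known to respond to histone deacetylase inhibitors, was at 5.37 and 5.67 CPM in Ctrl and 387 and 352 CPM with treatment (log2 fold change 6.06 ± 0.15, SE).

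A large share of all genes tested differed between treated and Ctrl libraries. Of the 16741 genes, 6106 (36.5%) passed an adjusted p of 0.05 in edgeR's quasi-likelihood test, 3521 higher (21%) and 2585 lower (15.4%). Changes past 2-fold were mostly upward, with 2484 genes higher (14.8%) and 622 lower (3.72%). The filter enters these counts, since 1161 genes passed it only through the treated libraries and 69 only through the Ctrl libraries. Of the former, 1071 had a mean under 1 CPM. With those 1161 genes left out and the 69 kept, 16.5% of 15580 genes were called higher and 16.6% lower. These 2 percentages are the background for every class and gene list below that is counted without such genes. Counted in this way, 12.9% of the 2115 genes with a mean under 1 CPM were called higher and 1.80% lower, and 31.1% of the 2148 genes from 1 to 5 CPM were called higher and 6.05% lower. Among the 2517 genes with a mean of at least 100 CPM, 10.7% were called higher and 26.8% lower.

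**Figure D1:**
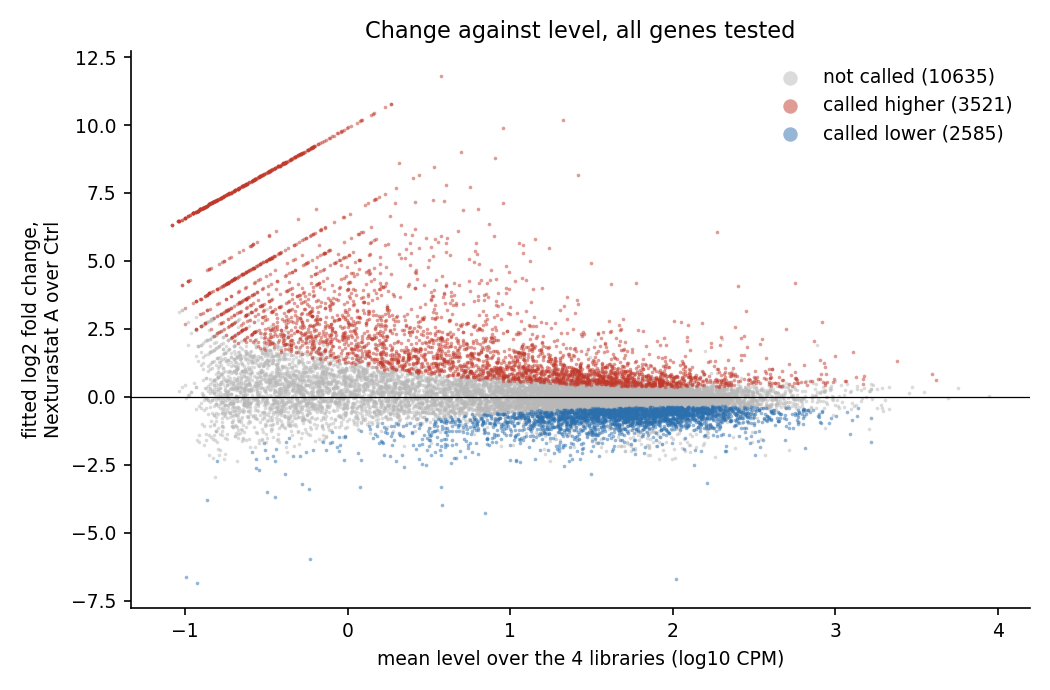
Each point is 1 of the 16741 genes tested, by its mean level over the 4 libraries (x axis, log10 CPM) and its fitted log2 fold change of Nexturastat A over Ctrl (y axis), coloured by call at an adjusted p of 0.05. Genes called higher number 3521, some of which passed the filter only through the treated libraries, and genes called lower number 2585; the straight line at the upper left holds genes with 0 counts in Ctrl, whose fitted fold depends on the prior count.

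Without the genes that passed only through the treated libraries, 26.0% of 289 long intergenic noncoding RNAs were called higher and 4.15% lower. Of 13282 protein-coding genes counted in the same way, 16.5% were called higher and 18.3% lower. Of 116 small nucleolar RNAs, 0 were called higher and 1.72% lower. The calls also went with composition. With genes cut into 5 equal classes by GC content, from the lowest class to the highest, the share called higher without such genes went from 10.96% to 21.3% and the share called lower from 25.0% to 10.97%. From the shortest to the longest of 5 classes by transcript length, the share called lower went from 7.46% to 28.3%. With trends on GC content and length removed from each library, 3424 genes were called higher and 2482 lower. When the mean of all genes was removed with those trends, the median log2 fold change of all genes moved from 0.03 to -0.26, and 31.4% of the calls were upward, against 57.7% in the fit as reported. Without Ctrl replicate 1 or Ctrl replicate 2 the number of calls dropped to 1567 and 1639, and without Nexturastat A replicate 1 or 2 it was 6969 and 8721.

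Genes that were silent in Ctrl and clearly present with Nexturastat A were a mixed set from many tissues: ion channel subunits, muscle myosins, germ line genes, leukocyte receptors and major histocompatibility genes. Silent is taken here as at most 3 counts over both Ctrl libraries, and switched on as called higher with at least 1 CPM in each treated library. Of 8850 silent symbols, 567 could be tested, all of them through the treated libraries. Of those, 45 (7.94%) met the rule, 37 of them protein coding and 24 with 0 counts in Ctrl. A gene chosen in this way had to differ, so the count describes the set and tests nothing. Levels stayed low, with a median over the 45 genes of 2.42 CPM, and 42 of the 45 were higher in replicate 1 than in replicate 2.

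FSTL5, a secreted follistatin-like protein gene of the nervous system, had 2 and 0 counts in Ctrl and reached 27.1 and 8.87 CPM with treatment, a ratio of 1059 with a counting interval of 293 to 8749 (95%, exact binomial). SCN1A, which encodes a voltage-gated sodium channel of neurons, had 0 counts in both Ctrl libraries and 8.75 and 6.21 CPM with treatment. Against the limit of 3 counts over the Ctrl group, SCN1A was at least 294-fold higher. MYH14, a nonmuscle myosin heavy chain gene, had 2 and 0 counts in Ctrl and 8.06 and 5.42 CPM with treatment, a ratio of 397 (110 to 3286). In all 3 genes both treated libraries stood far above both Ctrl libraries, and replicate 1 was the higher of the pair. These intervals and limits cover counting error only. They treat each count as independent, although 65.7 to 66.5% of counts from 1 to 20 were even in the 4 libraries, against 50.3 to 50.5% of counts over 1000; what made low counts even was not tested.

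The promoters of these 3 genes are shown to compare the sequence around the start of genes that were silent in Ctrl, beside that of SHISA3, an abundant gene that was lost. They are RefSeq sequences of build GRCh38.p14 from 250 bases before to 50 bases after the annotated start, on the strand of the gene. Capitals mark the motifs GGGCGG (the GC box), TATAAA (the TATA box), CCAAT and TGACTCA (an AP-1 site), each searched on both strands and none overlapping another kind. FSTL5 lies on the minus strand at chr4:162163951-162164250, SCN1A on the minus strand at chr2:166149112-166149411 (1 of 2 starts listed), MYH14 on the plus strand at chr19:50203372-50203671, and SHISA3 on the plus strand at chr4:42397238-42397537.
FSTL5: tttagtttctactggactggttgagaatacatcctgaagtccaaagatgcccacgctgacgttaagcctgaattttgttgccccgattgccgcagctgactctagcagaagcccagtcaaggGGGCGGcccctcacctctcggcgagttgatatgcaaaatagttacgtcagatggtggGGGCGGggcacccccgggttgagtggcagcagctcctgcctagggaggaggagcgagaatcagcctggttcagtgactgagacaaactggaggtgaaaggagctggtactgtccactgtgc
SCN1A: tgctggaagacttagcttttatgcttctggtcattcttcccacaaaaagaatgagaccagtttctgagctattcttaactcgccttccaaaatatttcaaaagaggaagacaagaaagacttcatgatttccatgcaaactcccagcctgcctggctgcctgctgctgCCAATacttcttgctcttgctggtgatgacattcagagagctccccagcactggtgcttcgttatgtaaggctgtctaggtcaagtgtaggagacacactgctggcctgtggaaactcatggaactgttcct
MYH14: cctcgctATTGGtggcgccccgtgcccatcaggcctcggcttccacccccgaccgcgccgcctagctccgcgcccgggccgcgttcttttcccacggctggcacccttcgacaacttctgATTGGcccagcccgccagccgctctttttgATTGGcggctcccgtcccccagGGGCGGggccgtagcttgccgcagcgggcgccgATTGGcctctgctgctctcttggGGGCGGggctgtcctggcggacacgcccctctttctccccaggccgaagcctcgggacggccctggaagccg
SHISA3: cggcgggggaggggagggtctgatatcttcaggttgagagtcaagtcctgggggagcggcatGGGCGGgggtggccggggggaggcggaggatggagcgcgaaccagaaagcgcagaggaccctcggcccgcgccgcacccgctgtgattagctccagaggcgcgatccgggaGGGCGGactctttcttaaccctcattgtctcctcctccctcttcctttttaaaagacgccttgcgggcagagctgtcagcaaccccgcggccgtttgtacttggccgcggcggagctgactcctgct
The promoters of FSTL5, SCN1A and MYH14 show how unlike these 3 silent genes were in sequence. MYH14 held 2 GC boxes, 4 CCAAT motifs and 32 CpG dinucleotides, a ratio of observed to expected CpG of 0.85. The SCN1A start had 2 CpG dinucleotides, a ratio of 0.12, no GC box and 1 CCAAT motif. FSTL5 had 2 GC boxes and 11 CpG dinucleotides (ratio 0.48), and SHISA3 had 2 GC boxes and 26 (ratio 0.82). Of the genes with a listed promoter, 31 of the 45 silent genes switched on matched, with 45 promoters, as did 11863 of the genes tested, with 17237 promoters. A GC box was present in 37.8% of promoters of genes switched on, in 39.0% of those of silent genes that were tested and not switched on, and in 61.9% of those of all genes tested. The median CpG ratio was 0.40, 0.37 and 0.78 in the same 3 sets. In these 2 measures the genes switched on lay beside the other silent genes tested, which also passed the filter only through the treated libraries. Silent symbols that could not be tested were not compared. A CpG ratio of at least 0.6 was found in 20%, 31.9% and 69.5% of promoters of the same 3 sets. The TATA box was present in 11.1%, 11.9% and 7.01% of promoters of the same 3 sets, CCAAT in 42.2%, 33.0% and 34.3%, and TGACTCA in 4.44%, 6.47% and 4.06%. Over all 35116 promoters listed, 45.0% held a GC box, 11.5% a TATA box, 34.6% CCAAT and 4.95% TGACTCA.

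Other genes switched on fell into families. NLRP5, an oocyte gene of the maternal effect complex, went from 2 and 0 counts to 7.86 and 3.09 CPM, and DMRT1, a testis transcription factor, from 0 counts to 4.26 and 2.50 CPM. The sperm protein gene SPANXN3 reached 5.17 and 2.69 CPM and the X-linked TEX13A reached 1.80 and 1.69 CPM. SCN4B, a sodium channel beta subunit, had 0 counts in Ctrl and 3.94 and 3.48 CPM with treatment, so that both treated libraries were close to each other. Their pooled counts were at least 146-fold above Ctrl. MYH13 and MYL2, a myosin heavy chain and a light chain of striated muscle, reached 4.79 and 2.94 CPM and 1.10 and 1.00 CPM. Leukocyte receptor genes on the list were LAIR1 (3.79 and 1.92 CPM), FPR2 (1.71 and 2.02 CPM) and CCR3 (1.26 and 1.00 CPM). The leukocyte marker PTPRC was at 0.27 and 0.66 CPM in the same libraries, below the level set for this list, and a part of other cells in these values was not tested. Of the 40 genes with a position in GENCODE 29, 13 lay on chromosome 19 (32.5%), among them NLRP5, MYH14, RFPL4AL1, PSG4, CEACAM6, LAIR1, FPR2 and the endogenous retroviral envelope gene ERVV-2. Chromosome 19 held 13.2% of the silent genes tested and 7.17% of all genes tested with a position. Without genes that passed only through the treated libraries, 20.1% of 1002 tested genes on chromosome 19 were called higher and 9.28% lower.

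**Figure D2:**
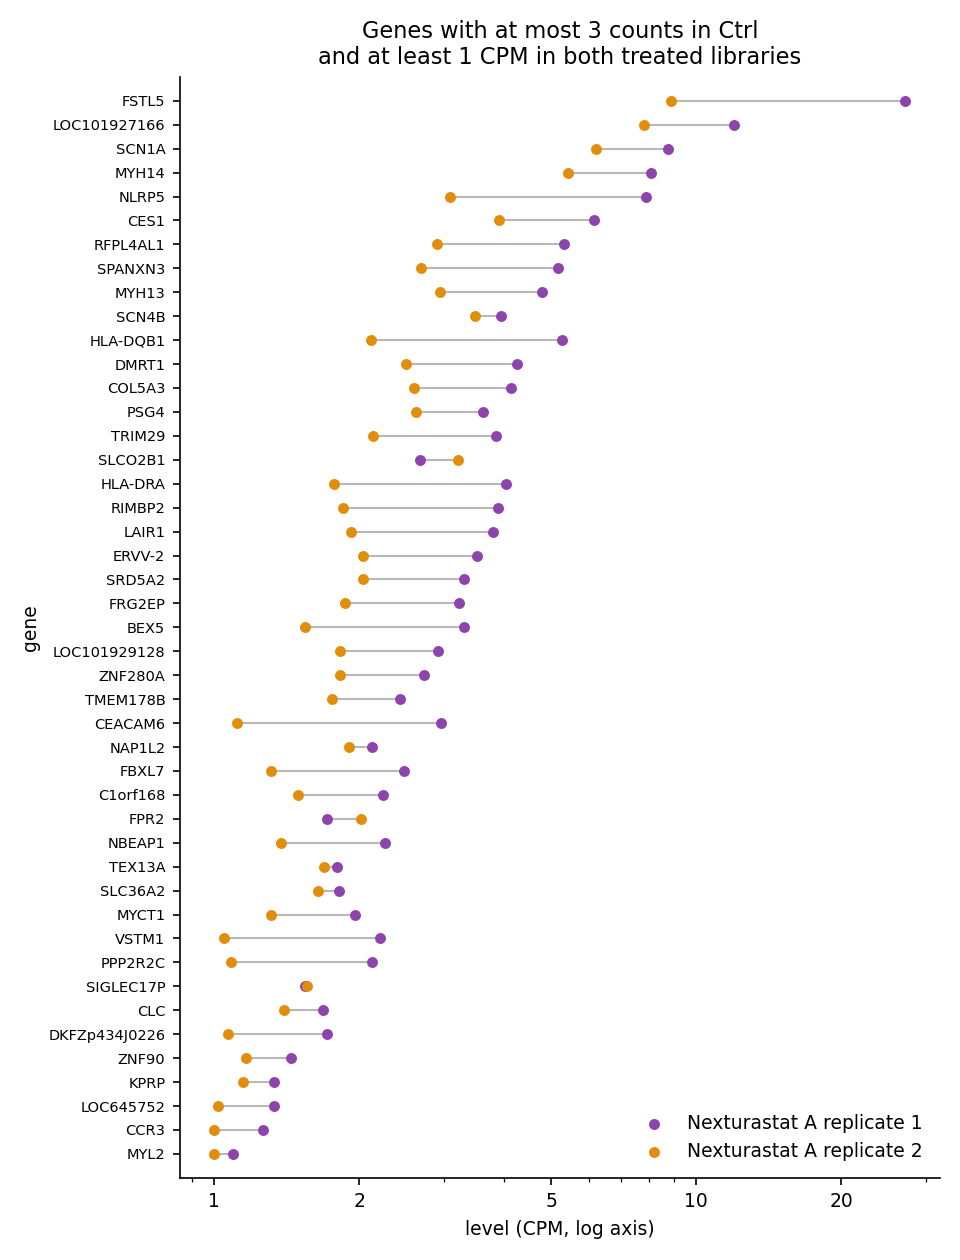
The 45 genes with at most 3 counts over both Ctrl libraries and at least 1 CPM in each treated library, ordered by their mean treated level; points give the level (CPM, log axis) in Nexturastat A replicate 1 (purple) and replicate 2 (orange). Levels run from 1.00 CPM to 27.1 CPM, and replicate 1 is the higher of the pair for 42 genes.

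At the other end, abundant transcripts fell steeply for a small set of genes with roles in secretion, transport, signalling and chromatin. Of 8389 genes with a mean of at least 20 CPM in Ctrl, 2155 were called lower and 791 higher, and 18 (0.215%) were called lower by at least 4-fold; 20 were called higher by as much. In all 18 the treated level was lower in replicate 1 than in replicate 2. MUC5AC, a secreted gel-forming mucin, was at 252 and 165 CPM in Ctrl and 0.60 and 3.40 CPM with treatment. SHISA3, a membrane protein gene, went from 308 and 278 CPM to 20.2 and 44.9 CPM. NRP1, a coreceptor for semaphorins and vascular endothelial growth factor, went from 351 and 331 CPM to 73.9 and 95.8 CPM (log2 fold change -2.01 ± 0.16, SE, adjusted p = 0.0006).

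NET1, an exchange factor that activates the GTPase RhoA, fell from 539.5 and 510.0 CPM to 106 and 133 CPM (log2 fold change -2.13 ± 0.16, adjusted p = 0.00046). PIK3CG, the gamma catalytic subunit of phosphoinositide 3-kinase, fell from 38.2 and 38.0 CPM to 6.30 and 10.8 CPM. IGFBP1, a secreted binding protein for insulin-like growth factors, fell from 22.4 and 24.5 CPM to 3.51 and 6.06 CPM. For NET1, PIK3CG and IGFBP1 the groups did not overlap and the Ctrl libraries lay close together. DMTN, which bundles actin, fell from 40.9 and 38.6 CPM to 5.24 and 11.2 CPM, and the long noncoding RNA LINC00261 from 42.1 and 47.4 CPM to 9.13 and 12.4 CPM. Chromatin genes in the set were NSD1, a histone H3 lysine 36 methyltransferase, PHF19, a Polycomb accessory protein, and HMGB3, a DNA-bending protein. NSD1 went from 109 and 106 CPM to 18.3 and 33.5 CPM, PHF19 from 95.4 and 95.04 CPM to 13.9 and 30.7 CPM and HMGB3 from 233 and 245 CPM to 46.4 and 73.0 CPM. The number of abundant genes lost followed the treated library used, with 8 without replicate 1 and 195 without replicate 2. Counted without any test, 8 genes were at least 4-fold below the Ctrl mean in both treated libraries.

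**Figure D3:**
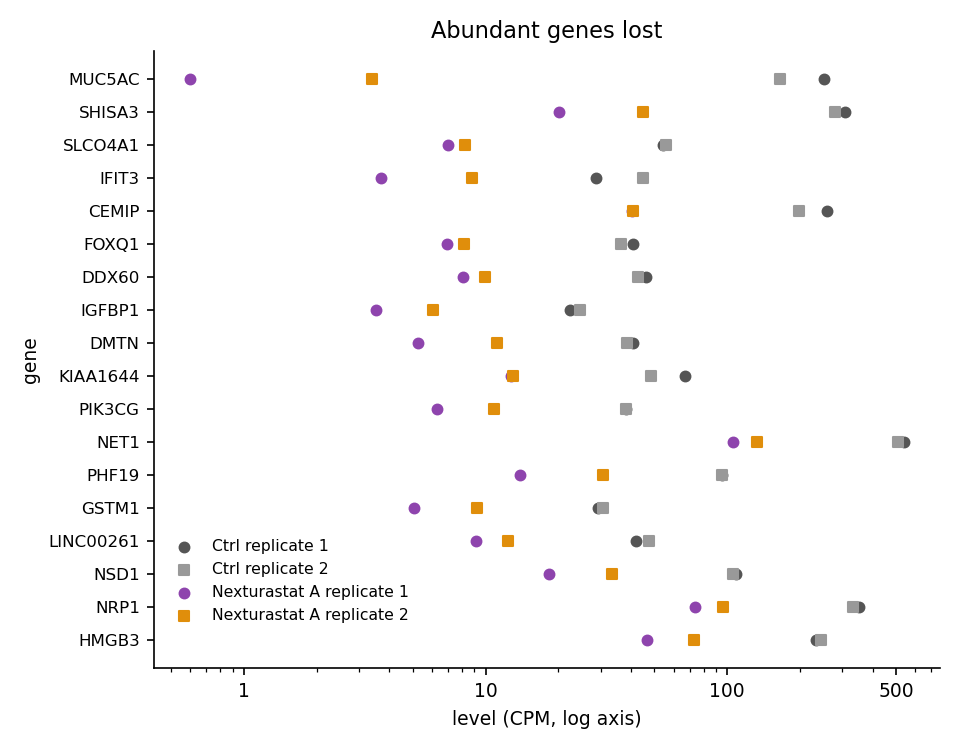
Levels (CPM, log axis) of the 18 abundant genes called lower by at least 4-fold, with 1 point for each of the 4 libraries. The treated points lie left of both Ctrl points for every gene, and replicate 1 lies left of replicate 2.

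Counted in CPM, the largest losses among called genes were in HMGA1, an architectural chromatin protein, and MSN, which links actin to the plasma membrane. HMGA1 went from 2754 and 2268 CPM to 614 and 979 CPM (log2 fold change -1.66 ± 0.24, adjusted p = 0.0037) and MSN from 1844 and 1716 CPM to 515 and 870.4 CPM. Other large losses were in AHNAK, a scaffold protein of the cell cortex, in NT5E, the ectonucleotidase CD73, in IGFBP4 and in TPM4, a tropomyosin of actin filaments. TPM4 was at 1083 and 1089 CPM in Ctrl and 475 and 641 CPM with treatment. The largest gains were in ACTG1, cytoplasmic gamma-actin, from 2856 and 2809 CPM to 5469 and 4533 CPM, and in CYR61, from 1387 and 1386 CPM to 3872 and 3017 CPM. CYR61, CTGF and ANKRD1 are known targets of the YAP coactivator. CTGF rose from 558 and 481 CPM to 1704 and 1226 CPM and ANKRD1 from 188 and 241 CPM to 1294 and 1575 CPM (log2 fold change 2.74 ± 0.19, adjusted p = 0.00039). NDRG1, a stress-responsive gene, rose from 306 and 269.6 CPM to 1623 and 776 CPM, so its treated libraries differed from each other as well. Genes called higher gained 78355 CPM together and for genes called lower the change summed to -114211 CPM.

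Enzymes that write histone marks were mostly lower. Of 26 histone lysine methyltransferase genes tested, 1 passed only through the treated libraries, and of the other 25, 14 were called lower and 1 higher. Their median log2 fold change was -0.61, against -0.03 over all genes counted in the same way. SETD2, the methyltransferase that trimethylates lysine 36 of histone H3, was at 100.03 and 97.4 CPM in Ctrl and 44.8 and 56.2 CPM with treatment. SUV39H1, a heterochromatin methyltransferase, was at 16.3 and 15.5 CPM and at 3.49 and 7.18 CPM. Neither gene overlapped between groups, and both fell, by 0.97 and 1.58 on the log2 scale. SMYD3 rose from 33.4 and 33.3 CPM to 60.8 and 50.2 CPM. Without Ctrl replicate 1 or 2 the methyltransferases called lower numbered 1 and 2, as the calls over all genes also dropped.

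Lysine acetyltransferases followed the same direction, with 11 of 17 called lower, 1 called higher and a median log2 fold change of -0.69. CREBBP, the coactivator CBP, fell from 64.4 and 63.7 CPM to 19.7 and 35.2 CPM, and NCOA2, a nuclear receptor coactivator, from 25.1 and 23.1 CPM to 3.62 and 8.84 CPM. KAT6B fell from 46.4 and 43.2 CPM to 16.7 and 20.2 CPM, and HAT1, which acetylates newly made histone H4, from 100.1 and 136 CPM to 40.7 and 63.3 CPM. NAA10, an amino-terminal acetyltransferase, was the gene called higher. Of 19 histone demethylases 5 were called lower and 1 higher. PHF2 fell from 74.3 and 71.8 CPM to 19.5 and 29.4 CPM, and KDM1B rose from 66.5 and 62.8 CPM to 112 and 90.3 CPM. HDAC6 itself was at 30.9 and 29.6 CPM in Ctrl and 26.9 and 26.3 CPM with treatment (log2 fold change -0.18 ± 0.14, adjusted p = 0.33).

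Replication-dependent histone genes, which make the bulk of histones in S phase and whose transcripts mostly lack a poly(A) tail, were called higher or not at all. Of 73 symbols, 24 were tested, 1 of them only through the treated libraries, and 7 of the other 23 were called higher and 0 lower. HIST1H2BD was at 2.73 and 3.81 CPM in Ctrl and 60.5 and 22.02 CPM with treatment, and HIST1H1C, a linker histone, at 10.9 and 18.2 CPM and at 111 and 48.5 CPM. Both genes had much more RNA in replicate 1, and the Ctrl libraries differed too, with a median log2 ratio of replicate 2 over replicate 1 of 0.58 over the list. How RNA was selected for these libraries is not given in the sources used here. Among histone variants, H1FX and H2AFJ rose and H2AFY, macroH2A, fell from 148 and 162 CPM to 90.4 and 103 CPM.

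RNA-binding proteins of the spliceosome were mostly lower. Of 46 SR and hnRNP splicing genes tested, 1 passed only through the treated libraries, and of the other 45, 23 were called lower and 2 higher, with a median log2 fold change of -0.51. HNRNPA1 fell from 1661 and 1728 CPM to 969.8 and 1079 CPM, and HNRNPH1 from 652 and 688 CPM to 277 and 362 CPM (log2 fold change -1.07 ± 0.16, adjusted p = 0.0042). SF3B6, a small subunit of the U2 particle, rose from 194 and 220.2 CPM to 468 and 278 CPM. Without Ctrl replicate 1 or 2 the splicing genes called lower numbered 3 and 1. HNRNPA1 has many processed pseudogenes, so its counts are uncertain to the extent that reads were shared.

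Cytosolic ribosomal protein genes were called higher or not at all: of 85 tested, 1 passed only through the treated libraries, and of the other 84, 25 rose and 0 fell, with a median log2 fold change of 0.36. RPL26 went from 610.0 and 653 CPM to 1345 and 907 CPM. These genes are short and have many pseudogene copies. Their direction depended on the scale. Over all 85 genes, 26 were called higher as reported, 20 were called higher and 1 lower with the GC and length trends removed, and 4 higher and 22 lower when the mean of all genes was removed as well. None was called higher without either Ctrl library, and 66 were without Nexturastat A replicate 2. Over all 80 nuclear genes of oxidative phosphorylation tested, 1 of them tested only through the treated libraries, the counts were 15 called higher and 1 lower as reported, 8 and 11 without the trends, and 3 and 31 without the mean as well. COX6A1, a cytochrome oxidase subunit, was at 213 and 227 CPM in Ctrl and 456 and 382 CPM with treatment. In translation initiation, EIF4G2 fell from 1123 and 1288 CPM to 479 and 758 CPM, and 6 of 42 factors were called lower and 1 higher. UBTF, which activates transcription of ribosomal RNA genes, fell from 142 and 154 CPM to 65.2 and 91.2 CPM. Of 41 ribosome biogenesis genes tested, 6 were called higher and 4 lower, with a median log2 fold change of -0.08. Those counts were 1 and 6 with the GC and length trends removed, and 0 and 19 without the mean as well.

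Genes of mitosis were below both Ctrl libraries in both treated libraries without exception, but the treated libraries disagreed on how far. All 36 genes of the mitosis and G2/M list had non-overlapping groups with treatment lower, against 35.1% of all genes tested, and the median log2 fold change was -1.76. Only 2 of them were called: ECT2, the exchange factor for RhoA in cytokinesis, fell from 239 and 260.2 CPM to 100.05 and 146 CPM, and BUB3, a spindle checkpoint protein, from 226 and 241 CPM to 143 and 161 CPM. The median log2 level against the Ctrl mean was -2.97 in replicate 1 and -1.16 in replicate 2. In 34 of the 36 genes replicate 2 was more than 2-fold above replicate 1. AURKB, a kinase of the chromosomal passenger complex, was at 79.6 and 80.0 CPM in Ctrl and 6.82 and 42.4 CPM with treatment (log2 fold change -1.70 ± 0.89, adjusted p = 0.22). FOXM1, the transcription factor of G2 genes, was at 199 and 213 CPM and at 17.1 and 84.1 CPM (adjusted p = 0.13). The number of mitosis genes called lower was 35 without replicate 1, 36 without replicate 2, 35 with limma voom and library weights, 19 with DESeq2 and 13 with the replicate number as a block. It was 0 without either Ctrl library.

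DNA replication genes showed the same order with smaller sizes. Of 38 S phase genes, 28 had non-overlapping groups with treatment lower, the median was -1.67 in replicate 1 and -0.40 in replicate 2, and 3 were called lower. PCNA, the sliding clamp, fell from 109 and 134 CPM to 49.5 and 74.3 CPM (log2 fold change -0.97 ± 0.21, adjusted p = 0.013). RFC4, of the clamp loader, fell from 41.2 and 52.9 CPM to 19.1 and 29.7 CPM and POLA1, the catalytic subunit of polymerase alpha, from 65.6 and 66.9 CPM to 25.7 and 45.1 CPM. The number of S phase genes called lower was 22 without Nexturastat A replicate 1, 36 without replicate 2, 19 with limma voom, 15 with DESeq2, 22 with the replicate block and 0 without either Ctrl library. Nucleotide synthesis followed, with 8 of 25 genes called lower and 0 higher. DCK, deoxycytidine kinase, fell from 71.1 and 76.9 CPM to 24.0 and 37.0 CPM and SHMT1, a folate enzyme, from 43.1 and 46.7 CPM to 13.4 and 23.6 CPM.

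Regulators of G1 were called in both directions. CDKN1A, the inhibitor p21, went from 42.4 and 45.5 CPM to 176 and 227 CPM, and CCND1, cyclin D1, rose from 428 and 446 CPM to 623 and 785 CPM. CCNG1, cyclin G1, fell from 107 and 98.7 CPM to 50.5 and 41.9 CPM, and CDK2 from 121 and 123 CPM to 50.9 and 85.8 CPM. Of 25 p53 target genes, 3 were called higher and 5 lower. LMNB1, the lamin B1 gene, fell from 127 and 135 CPM to 26.9 and 52.6 CPM. In the BCL2 family, BMF, a proapoptotic member, rose from 1.64 and 1.25 CPM to 11.8 and 7.41 CPM. BCL2L1, which encodes BCL-XL, rose from 321 and 319 CPM to 674 and 573 CPM, and MCL1 fell from 547 and 497 CPM to 307 and 266 CPM.

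Metallothioneins, small proteins that bind zinc and copper, rose together and more in replicate 1. Of 12 symbols, 6 were tested, 2 of them only through the treated libraries, and the other 4 were all called higher. MT1X was at 28.5 and 28.2 CPM in Ctrl and 731 and 220.4 CPM with treatment, and MT2A at 640.3 and 594 CPM and at 2571 and 1321 CPM. MT1E rose from 91.2 and 99.5 CPM to 645 and 265 CPM (log2 fold change 2.25 ± 0.48, adjusted p = 0.030). The coding parts of these genes are nearly identical, so their shares of the family's reads are uncertain. Among lysosomal genes, 11 of 36 were called higher and 3 lower. LIPA, lysosomal acid lipase, rose from 84.0 and 82.7 CPM to 196 and 159.9 CPM and CTSD, cathepsin D, from 587 and 588 CPM to 1086 and 1015 CPM. SQSTM1, the autophagy receptor p62, rose from 509 and 510.1 CPM to 1273 and 1124 CPM (log2 fold change 1.23 ± 0.14, adjusted p = 0.0017). HSPB8, a small heat shock protein that works with BAG3, rose from 3.31 and 4.34 CPM to 35.8 and 42.6 CPM, while BAG3 fell from 200.05 and 188 CPM to 104 and 150.5 CPM.

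Cytochrome P450 genes moved in both directions. Of 29 tested out of 56 symbols, 6 passed only through the treated libraries, and of the other 23, 9 were called higher and 5 lower. Of those 5, 1 passed the filter only through the Ctrl libraries. CYP24A1, which inactivates vitamin D, rose from 0.80 and 0.62 CPM to 7.57 and 8.05 CPM, and CYP1A1, a target of the aryl hydrocarbon receptor, from 15.3 and 17.7 CPM to 44.9 and 42.3 CPM. CYP51A1, of cholesterol synthesis, fell from 151 and 157 CPM to 88.6 and 93.5 CPM. The treated libraries of these 3 genes lay close together. Among aldehyde dehydrogenases, ALDH1L1, of folate metabolism, rose from 1.55 and 1.70 CPM to 9.89 and 7.29 CPM and ALDH5A1 fell from 25.4 and 20.9 CPM to 10.8 and 10.6 CPM.

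Tubulin genes, whose products are the best known substrates of HDAC6, changed by isotype. Of 20 tubulin genes tested, 1 passed only through the treated libraries, and of the other 19, 5 were called higher and 1 lower. TUBB3, the neuronal class III beta-tubulin, rose from 30.3 and 34.4 CPM to 162 and 124 CPM (log2 fold change 2.15 ± 0.17, adjusted p = 0.00059). TUBA1A rose from 70.1 and 77.5 CPM to 148 and 179 CPM and TUBB4A from 9.89 and 8.39 CPM to 23.0 and 27.6 CPM. The most highly counted isotypes did not pass the test: TUBA1B was at 1982 and 2467 CPM in Ctrl and 555 and 1404 CPM with treatment (adjusted p = 0.13), and TUBB at 2139 and 2473 CPM and at 1184 and 2053 CPM (adjusted p = 0.16). Reads of near-identical isotypes can be split between them by the counting. Of 24 genes for tubulin-modifying enzymes, 1 passed only through the treated libraries. Of the other 23, 4 were called higher and 3 lower, near the 16.5% and 16.6% of all genes counted in the same way. Among those 4, the polyglutamylase TTLL7 rose from 18.6 and 17.5 CPM to 33.4 and 37.3 CPM.

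Cilium genes, kinesins and actin-based motors also split. Of 30 genes for axonemal dyneins and intraflagellar transport, 2 passed only through the treated libraries, and of the other 28, 11 were called higher and 4 lower. DNAAF3, a dynein assembly factor, rose from 16.6 and 16.2 CPM to 51.6 and 54.9 CPM, and the axonemal heavy chain DNAH2 fell from 74.2 and 68.6 CPM to 17.01 and 30.5 CPM. Among myosins, MYO1D rose from 1.19 and 0.74 CPM to 14.5 and 12.1 CPM and MYO5B from 4.78 and 6.08 CPM to 22.2 and 16.8 CPM. MYO19, a mitochondrial myosin, fell from 107 and 103 CPM to 47.1 and 72.5 CPM. Kinesins had 14 of 36 genes more than 2-fold higher in replicate 2 than in replicate 1, which was true of 34 of the 36 mitosis genes.

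Keratins, the intermediate filaments of epithelia, were called higher or not at all. Of 55 symbols 24 were tested, 7 of them only through the treated libraries, and of the other 17, 7 rose and 0 fell. KRT81, a hair-type keratin, rose from 24.7 and 26.4 CPM to 185 and 173 CPM (log2 fold change 2.81 ± 0.13, adjusted p = 0.00023), and KRT15, a basal keratin, from 8.56 and 6.26 CPM to 51.7 and 31.3 CPM. KRT19, of simple epithelia, rose from 336 and 299 CPM to 709 and 743 CPM. KRT7 went from 439.5 and 463 CPM to 786 and 1535 CPM, a gain that was greater in replicate 2. KRT81 and KRT86 share long stretches of sequence, and reads between them are uncertain. DES, the muscle intermediate filament desmin, rose from 4.06 and 3.76 CPM to 24.5 and 23.3 CPM.

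Cell adhesion genes changed in both directions, with more cadherins and connexins called higher than lower. Of 14 cadherin genes tested, 2 passed only through the treated libraries, and of the other 12, 6 were called higher and 1 lower. CDH24 rose from 23.5 and 20.4 CPM to 46.4 and 56.4 CPM, and CDH11, a mesenchymal cadherin, was the one that fell, from 146 and 120 CPM to 40.7 and 59.4 CPM. CDH2, N-cadherin, rose from 0.29 and 0.32 CPM to 1.80 and 1.35 CPM, while E-cadherin (CDH1) was at 0.17 and 0.28 CPM with treatment. All 23 cadherin symbols summed to 235 and 199 CPM in Ctrl and 161 and 208 CPM with treatment. Of 43 protocadherins tested, 6 passed only through the treated libraries. Of the other 37, 5 were called higher and 7 lower, near the 16.5% and 16.6% of all genes counted in the same way. The median log2 fold change of those 37 was -0.38, against -0.03 over all genes. PCDH1 rose from 5.08 and 4.01 CPM to 44.2 and 51.9 CPM, and PCDHGB7, of the clustered gamma group, fell from 4.32 and 4.16 CPM to 1.10 and 1.35 CPM. Of 10 connexins tested, 2 passed only through the treated libraries, and of the other 8, 5 rose and 0 fell, among them GJA1, the gap junction protein connexin 43, from 74.6 and 80.1 CPM to 144 and 121 CPM.

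Collagen genes changed in both directions. Of 34 tested, 6 passed only through the treated libraries, and of the other 28, 13 were called higher and 5 lower. COL4A4 rose from 2.39 and 2.86 CPM to 14.2 and 11.6 CPM and COL1A1, the main fibrillar chain, from 8.12 and 6.45 CPM to 25.7 and 26.4 CPM. The basement membrane chains COL4A1 and COL4A2, transcribed from a shared promoter, fell, COL4A2 from 294 and 251 CPM to 119 and 186 CPM. Of 6 fibroblast markers tested, 1 passed only through the treated libraries, and of the other 5, 4 were called higher and 0 lower. All 10 markers of that list summed to 11.5 to 14.0 CPM in Ctrl and 44.5 to 44.8 CPM with treatment. Nearly all of it was COL1A1, PDGFRB and COL3A1, with THY1 and POSTN at 0 in Ctrl. The part of fibroblasts in the collagen values was not tested. LAMC3, a laminin chain, rose from 0.27 and 0.20 CPM to 12.3 and 11.8 CPM and LAMA4 fell from 144 and 121 CPM to 37.0 and 71.7 CPM. In bulk RNA, fewer or more cells of a type and less or more RNA per cell cannot be told apart.

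Among matrix metalloproteinase and serpin genes, more were called higher than lower. Of 16 matrix metalloproteinase genes tested, 2 passed only through the treated libraries, and of the other 14, 9 rose and 1 fell. MMP13 rose from 0.84 and 0.51 CPM to 14.5 and 10.0 CPM, MMP9 from 0.27 and 0.12 CPM to 5.62 and 4.48 CPM and the membrane-bound MMP15 from 14.4 and 11.8 CPM to 75.1 and 65.2 CPM. MMP14, the membrane protease that activates MMP2, fell from 236 and 221 CPM to 61.7 and 105 CPM (log2 fold change -1.46 ± 0.24, adjusted p = 0.0064). All 22 metalloproteinase symbols summed to 274 and 254 CPM in Ctrl and 194 and 220 CPM with treatment. The part of expression level in these counts of calls was not tested. Of 21 serpins tested, 4 passed only through the treated libraries, and of the other 17, 9 rose and 1 fell. SERPINA1, alpha-1 antitrypsin, rose from 5.22 and 5.29 CPM to 38.4 and 22.04 CPM.

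Among ion channels and receptors of neurons and muscle, more genes were called higher than lower. The same held for all weakly expressed genes counted without those that passed only through the treated libraries. From 1 to 5 CPM, 31.1% were called higher and 6.05% lower, and under 1 CPM 12.9% and 1.80%. The part of expression level in the counts below was not tested. Of 30 sodium and calcium channel genes tested, 8 passed only through the treated libraries, and of the other 22, 11 were called higher and 3 lower. SCN9A, the sodium channel of pain neurons, rose from 5.24 and 5.00 CPM to 27.4 and 20.7 CPM (log2 fold change 2.23 ± 0.21, adjusted p = 0.00095). CACNA1G, a T-type calcium channel, rose from 0.61 and 0.40 CPM to 5.74 and 4.37 CPM, while its relative CACNA1H fell from 8.09 and 6.16 CPM to 2.10 and 2.15 CPM. Of 53 potassium channel genes tested, 8 passed only through the treated libraries, and of the other 45, 12 rose and 2 fell. KCNK9, a leak channel, rose from 0.63 and 0.81 CPM to 17.8 and 10.9 CPM. Of 28 glutamate and GABA receptor genes tested, 13 passed only through the treated libraries, and of the other 15, 4 rose and 0 fell, among them GRID1, from 7.61 and 7.46 CPM to 28.9 and 24.9 CPM. Of the axon guidance genes, EPHB6, an ephrin receptor, rose from 0.65 and 0.91 CPM to 17.2 and 20.7 CPM and SEMA3F from 3.10 and 2.66 CPM to 12.7 and 11.5 CPM.

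**Figure D4:**
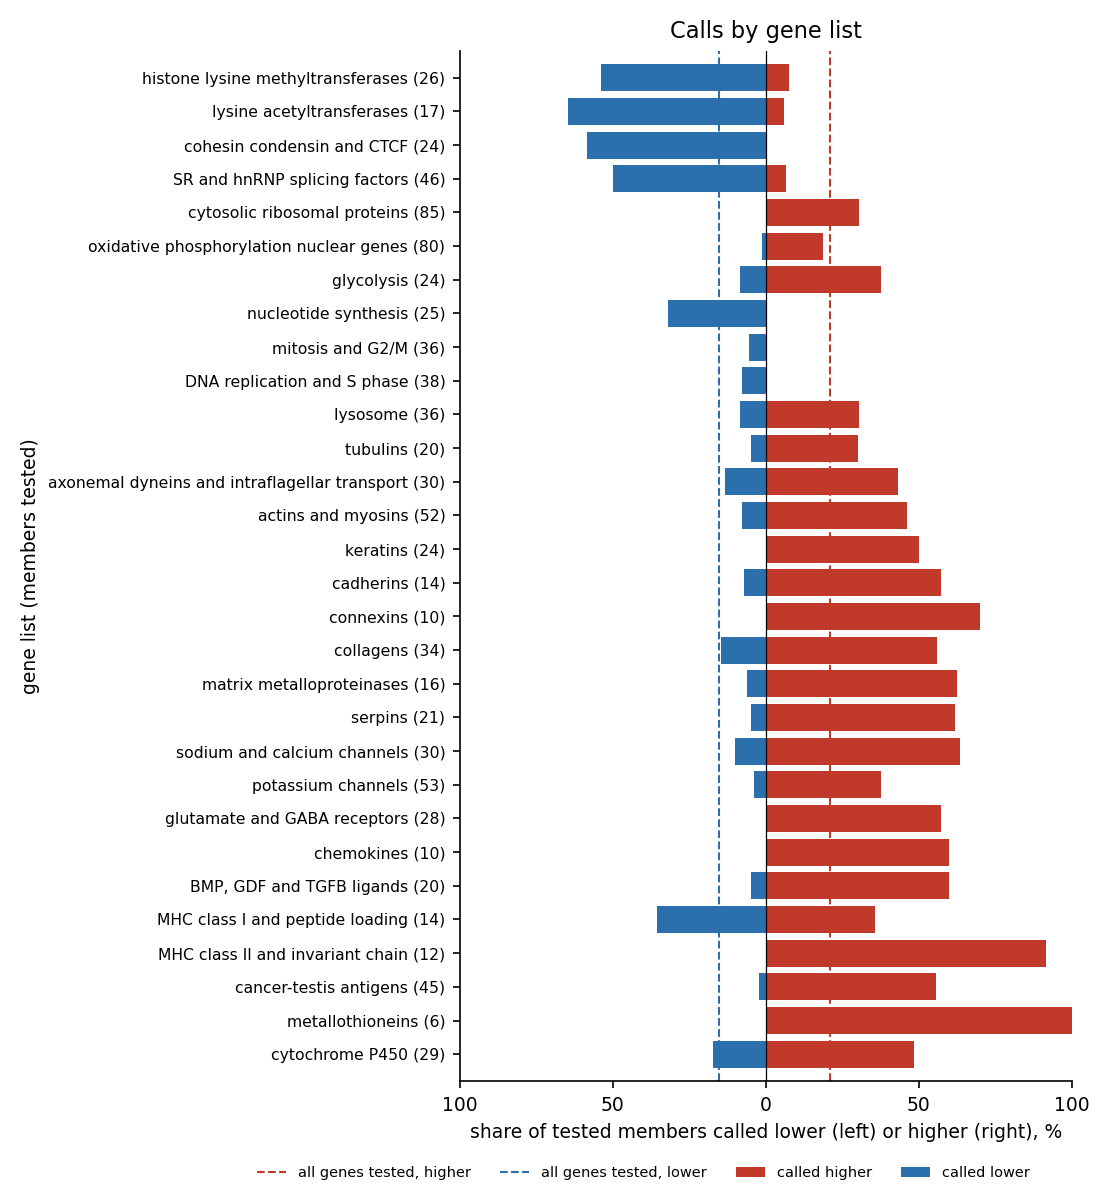
Share of the tested members of 30 gene lists called lower (blue, left) or higher (red, right) at an adjusted p of 0.05, with the number tested in parentheses; members that passed the filter only through the treated libraries are included, so red bars of weakly expressed families are partly set by the filter. Dashed lines mark the shares over all genes tested, 21% higher and 15.4% lower.

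Secreted signals and early-response transcription factors rose in several families. Of 10 chemokine genes tested out of 41 symbols, 6 were called higher and 0 lower. CXCL8, which attracts neutrophils, rose from 35.5 and 43.8 CPM to 217 and 308 CPM (log2 fold change 2.73 ± 0.20, adjusted p = 0.0005), and CCL26, an eosinophil attractant, from 0.43 and 0.47 CPM to 4.32 and 2.82 CPM. IL12A, a subunit of interleukin 12, rose from 4.35 and 4.56 CPM to 15.6 and 14.6 CPM and IL18 from 30.5 and 31.6 CPM to 57.2 and 54.6 CPM. Of 20 BMP, GDF and TGF-beta ligand genes tested, 3 passed only through the treated libraries, and of the other 17, 10 rose and 1 fell. GDF15, a stress-induced ligand, rose from 12.8 and 13.2 CPM to 77.8 and 83.1 CPM and INHBA from 0.99 and 0.88 CPM to 3.64 and 5.03 CPM. TGFB1 fell from 209 and 164 CPM to 114 and 135 CPM.

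Of 10 AP-1 factors, 4 rose and 0 fell: ATF3, FOS, JUNB and JUND. JUNB went from 65.6 and 59.1 CPM to 213 and 136 CPM. All 3 NR4A nuclear receptors, which are induced by many stimuli, rose, NR4A1 from 5.22 and 4.45 CPM to 18.5 and 13.4 CPM. DUSP1, a phosphatase of MAP kinases, rose from 35.6 and 35.4 CPM to 139.7 and 125 CPM, and SPRY1, a feedback inhibitor of receptor tyrosine kinases, fell from 88.1 and 82.7 CPM to 37.8 and 35.1 CPM. Among TNF ligands, TNFSF9 rose from 4.76 and 5.41 CPM to 17.7 and 19.3 CPM.

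Genes of major histocompatibility class II, which present peptides to helper T cells, were absent or low in Ctrl. Those called higher stayed at low level with treatment. Of the symbols listed, 10 had 0 counts in Ctrl, and 2 of these had 0 counts with treatment too. Of 19 symbols 12 were tested, 8 of them only through the treated libraries, and of the other 4, 3 were called higher. HLA-DMB, a peptide-loading chain, rose from 0.75 and 0.72 CPM to 14.7 and 12.5 CPM, HLA-DPA1 from 0.48 and 0.37 CPM to 14.7 and 10.2 CPM, and HLA-DMA from 2.06 and 2.22 CPM to 6.68 and 6.82 CPM. HLA-DRA had 0 counts in Ctrl and 4.02 and 1.77 CPM with treatment and HLA-DQB1 had 0 counts and 5.27 and 2.12 CPM. CIITA, the class II transactivator, had 2 and 0 counts in Ctrl and 8 and 21 with treatment, and CD74, the invariant chain, had 2 and 4 counts and 15 and 9, so neither entered the test. The blood cell marker MS4A1 of B cells, which express class II, was at or below 0.115 CPM in the treated libraries. Of 8 blood cell markers tested, 2 passed only through the treated libraries. Of the other 6, 1 was called higher and 0 lower, against 16.5% and 16.6% of all genes counted in the same way. With those 2 included, 3 were called higher. ITGAM, an integrin of myeloid cells, rose from 0.07 and 0.13 CPM to 2.28 and 1.10 CPM, CD3D, of the T cell receptor complex, from 0.07 and 0.19 CPM to 0.86 and 0.80 CPM, and PTPRC from 0 counts to 0.27 and 0.66 CPM. The part of such cells in the class II values was not tested.

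Class I genes, with those of peptide loading, went both ways: of 14 tested, 5 rose and 5 fell. HLA-B rose from 73.3 and 66.2 CPM to 309 and 243 CPM (log2 fold change 1.98 ± 0.16, adjusted p = 0.0006) and HLA-C from 175 and 164 CPM to 277 and 292 CPM. ERAP1, an aminopeptidase that trims peptides, fell from 66.3 and 61.2 CPM to 27.0 and 31.6 CPM and TAP2, a peptide transporter chain, from 163 and 175 CPM to 77.8 and 120 CPM. Reads of HLA genes are uncertain because the genes resemble each other and vary from the reference. Cancer-testis antigens, normally limited to germ cells, had 45 of 142 symbols tested, 14 of them only through the treated libraries, and of the other 31, 11 rose and 1 fell. MAGEB6 rose from 0.41 and 0.24 CPM to 11.7 and 9.87 CPM.

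The treated libraries differed from each other far more than the Ctrl libraries did. Among 11324 genes with a mean of at least 5 CPM, 381 (3.36%, exact binomial interval 3.04 to 3.71%) differed by more than 2-fold between the treated replicates, and 9 (0.08%) between the Ctrl replicates. The standard deviation of the log2 ratio over genes was 0.42 in the treated pair and 0.18 in the Ctrl pair. Of the 381 genes, 334 were higher in replicate 2, and 280 of those had both treated libraries below both Ctrl libraries, although 44 were called lower. The other 47 were higher in replicate 1, and 39 of them had both treated libraries above both Ctrl libraries, 24 of them called higher. Replicate 1 thus lay further from Ctrl in most genes of both kinds. Across genes, log2 levels correlated at 0.93 between replicate 1 and each Ctrl library and at 0.95 between replicate 2 and each, and genes are not independent replicates.

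GTSE1, a G2 and S phase regulator of microtubules, was at 80.9 and 82.5 CPM in Ctrl and 6.04 and 34.6 CPM with treatment, and MYBL2, a transcription factor of dividing cells, at 145 and 167 CPM and at 20.2 and 102 CPM. PKMYT1, a kinase that restrains entry into mitosis, was at 31.0 and 38.5 CPM in Ctrl and 7.07 and 38.3 CPM with treatment, so that only replicate 1 lay outside the Ctrl range. On the other side, SLC2A3, a glucose transporter, was at 79.1 and 70.3 CPM and at 489 and 166 CPM (adjusted p = 0.054), and the nuclear noncoding RNA MALAT1 at 80.6 and 69.2 CPM and at 346.5 and 138 CPM (adjusted p = 0.065). DNER, a Notch ligand, rose from 0.80 and 0.72 CPM to 48.1 and 19.4 CPM. In all, 181 genes had a log2 fold change of -1 or below, non-overlapping groups and no call, against 8 genes with a log2 fold change of 1 or above. GC content moved with the difference between the treated libraries: among genes with a mean of at least 5 CPM, the median log2 ratio of replicate 2 over replicate 1 went from -0.06 in the lowest of 5 GC classes to 0.20 in the highest, and from 0.05 to -0.07 in the Ctrl pair. Its part in the list values was not tested.

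**Figure D5:**
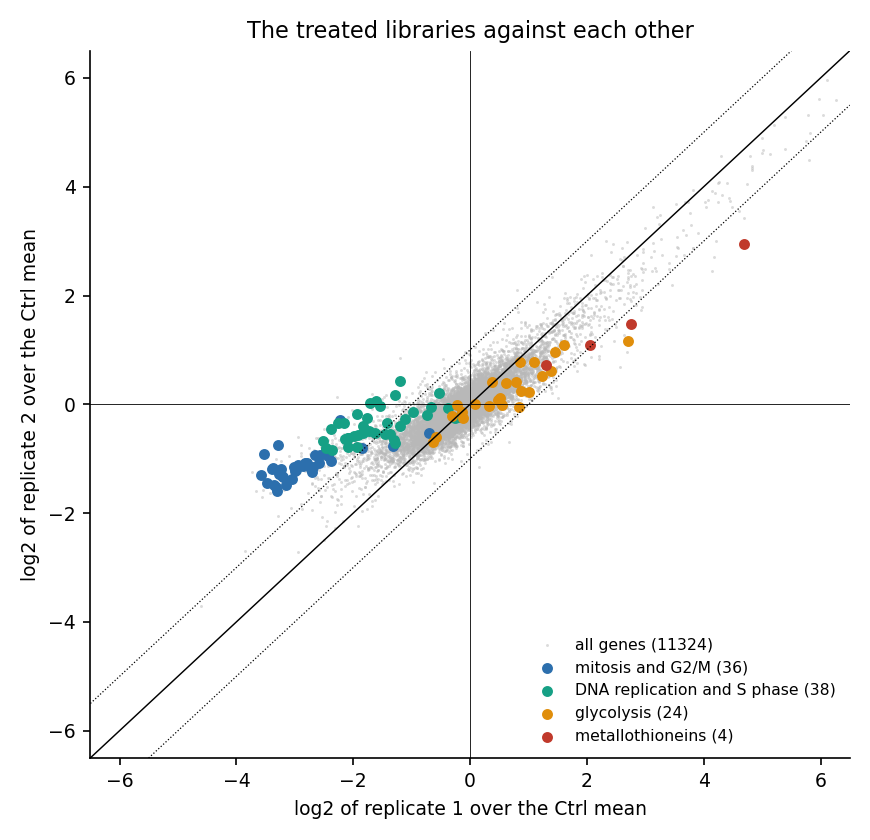
Log2 level of each gene over the Ctrl mean in Nexturastat A replicate 1 (x axis) and replicate 2 (y axis) for the 11324 genes with a mean of at least 5 CPM, with members of 4 lists coloured; the solid line marks equality and dotted lines a 2-fold difference. Of the 36 mitosis genes, 34 sit left of the upper dotted line, with list medians of -2.97 and -1.16, and MT1X lies at the right, further from Ctrl in replicate 1.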

How the data were processed

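RNA-seq libraries of 2 Ctrl and 2 Nexturastat A samples were compared, grouped by GEO's labels. The authors deposited whole-number counts per gene symbol. The submitters' processing notes list Trim Galore 0.6.7, STAR 2.7.9a, featureCounts 2.0.3 and DESeq2 1.30.1; the sources used here do not give the annotation, the strand setting or whether read pairs were counted once. Symbols with at least 10 counts in at least 2 libraries were tested on the deposited counts with edgeR 4.0.16 in R 4.3.3 (TMM normalization, quasi-likelihood test, these 4 libraries only, no covariate), with Benjamini-Hochberg adjustment over all genes tested and a threshold of 0.05. CPM uses TMM-scaled library sizes, and errors of log2 fold changes are standard errors. Library totals ran from 58004430 to 61551670 counts, which sets the counting precision. An exact permutation test of 2 against 2 cannot go below p = 0.333. Named genes were HDAC6, the markers, up to 4 called genes with the largest change per list and direction, the 12 highest silent genes switched on, the 12 abundant genes lost with the lowest fold change, the 10 largest gains and losses in CPM, and the 6 largest differences each way between treated libraries; other genes of the silent and lost sets, and TUBA1B, TUBB, CDH2, HLA-DRA and CIITA, were chosen after their values were seen. The comparison and all gene lists were chosen with earlier results of these data known. On simulated data (16401 genes), 37 of 50 genes at a log2 change of 1 and 50 of 50 at 2 were recovered, 27 of 50 at -1 and 46 of 50 at -2, with 25 false among 185 calls. The simulation gave both groups the same dispersion and changed only genes with a mean of at least 50 counts. Recovery was thus not measured in weakly expressed genes, and the wider spread of the treated pair was not simulated. Alternatives were DESeq2 1.42.0, limma 3.58.1, other filters, trend removal, a replicate block and leaving out each library. Positions and biotypes came from GENCODE 29 by symbol, and promoters from RefSeq. A few genes are not reported here.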

Additional observations from a re-analysis of the deposited data

How the results depend on the processing

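No gene called in the comparison as reported was called in the opposite direction under any alternative run. With a mean of at least 5 CPM required, 3586 genes were called, 1982 higher and 1604 lower, 784 and 332 past 2-fold, and 2 silent genes were switched on. Silent genes numbered 116 with up to 10 Ctrl counts allowed. Abundant genes lost numbered 10 at a minimum of 50 CPM, 69 with limma voom and 48 with GC and length trends and the mean of all genes removed, a setting chosen after seeing the data, under which 2421 genes were called higher, 5297 lower and 1392 lower past 2-fold. Under it the log2 fold changes of FBL (-0.0024), HLA-E (-0.0714), MDH2 (-0.0683), PSMD4 (-0.0872), S100A10 (-0.14), SEC61B (-0.21) and SF3B5 (-0.0513) changed sign; the cause was not tested. With the replicate number as a block, 6519 genes were called and 35 abundant genes lost; the labels do not say that the numbers pair the samples, and same-numbered deviations correlated at 0.11 over only 2 pairs. Leaving out each library in turn gave 1567 to 8721 calls, 1283 to 4280 higher, 268 to 4441 lower, 1280 to 2054 higher past 2-fold, 230 to 1342 lower past 2-fold, 0 to 92 silent genes and 8 to 195 abundant genes lost. The 0 follows from the filter, which needs 2 libraries with counts. The lone library of a group is then assumed to vary like the other group.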

Other observations

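Zinc finger genes of the ZNF series, most of them transcriptional repressors, numbered 461 tested, 21 of them only through the treated libraries. Of the other 440, 28 were called higher and 55 lower. Over all genes counted in the same way, 16.5% were called higher and 16.6% lower, so ZNF genes were called higher less often. Solute carriers, the membrane transporters of small molecules, numbered 293 tested, 23 of them only through the treated libraries. Of the other 270, 51 were called higher and 39 lower, near the shares over all genes. Of 38 ABC transporter genes tested, 3 passed only through the treated libraries, and of the other 35, 9 were called higher and 7 lower. Of 18 HOX cluster genes tested, 1 passed only through the treated libraries, and of the other 17, 2 were called higher and 4 lower.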
